A study of Mus musculus with 15 samples.

Results

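The gene Spp1 encodes osteopontin, a secreted phosphoprotein. It was represented by 8 of the 93217 regions of open chromatin that the deposited table holds for mouse liver cells. The 8 were chosen by position alone: the midpoint of a region lay in the body of Spp1 (mm10, chromosome 5, 104435111 to 104441053), or Spp1 was its nearest protein-coding gene within 50 kb. Chromatin was opened to sequencing by ATAC-seq, in which a transposase cuts and tags accessible DNA. A region's value is given as nuclear RPM, the reads in the region per 1000000 reads in all regions outside the mitochondrial genome. These values measure access to DNA and not the amount of osteopontin mRNA.

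Osteopontin is made in the healthy liver mainly by the epithelial cells of the bile ducts, and its gene is widely used as a marker of that lineage. The protein binds integrins through an RGD motif and an adjacent site, and it binds CD44. Activated macrophages and stellate cells also make it in injured livers, where it has been tied to ductular reactions and scarring. Proteases such as thrombin and matrix metalloproteinases cleave it, the kinase FAM20C phosphorylates it and transglutaminase 2 cross-links it.

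There were 5 groups of 3 libraries. Reprogrammed hepatocytes, biliary cells and hepatocytes came from mice treated with DDC (diethoxycarbonyl-dihydrocollidine, given in the diet to injure bile ducts), and biliary cells and hepatocytes came from untreated mice. All were sorted straight from the liver with no growth in culture. The sources used here do not give strain, age, the dose and length of DDC, the sort markers or how a hepatocyte was classed as reprogrammed. No label ties a library to an animal, so p-values measure only the spread between these libraries, which may be technical. In bulk libraries such as these, more cells with an open region and a wider opening per cell cannot be told apart.

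Depth differed between the groups and sets the precision of every value below. Nuclear reads per library numbered 4756891 to 9829886 in reprogrammed cells, 5151190 to 10395918 in DDC biliary cells, 1191409 to 2342643 in DDC hepatocytes, 2439831 to 4389653 in untreated biliary cells and 201705 to 605309 in untreated hepatocytes. One read was therefore worth 1.65 to 4.96 nuclear RPM in untreated hepatocytes, and at most 0.839 in any other group. The labels held against their markers: 6 biliary genes (among them Krt19, Epcam and Sox9) summed to 966 to 1037 nuclear RPM in DDC biliary cells, 773 to 860 in untreated biliary cells and 700 to 795 in reprogrammed cells, against 217 to 299 in DDC hepatocytes and 249 to 382 in untreated hepatocytes. The sum of 6 hepatocyte genes (among them Alb, Hnf4a and Ttr) ran the other way, with 347 to 571 in reprogrammed cells, 228 to 412 in DDC biliary cells, 1612 to 2121 in DDC hepatocytes, 306 to 673 in untreated biliary cells and 2120 to 3129 in untreated hepatocytes. Of 6 genes listed for macrophages 3 had a region: Cd68, Csf1r and Ptprc, the last a gene of leukocytes in general. Their sum stayed between 94.2 and 183 nuclear RPM in all 15 libraries, although single members moved in some comparisons. None of the markers with a region was at 0 in any group.

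The sequence upstream of the annotated start is shown because the promoter region below covers it. RefSeq (GRCm38.p6, the same build as mm10) gives these 250 bases before the first base of Spp1 on the plus strand, at chr5:104434861-104435110, with motif matches in capitals:

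Spp1 promoter: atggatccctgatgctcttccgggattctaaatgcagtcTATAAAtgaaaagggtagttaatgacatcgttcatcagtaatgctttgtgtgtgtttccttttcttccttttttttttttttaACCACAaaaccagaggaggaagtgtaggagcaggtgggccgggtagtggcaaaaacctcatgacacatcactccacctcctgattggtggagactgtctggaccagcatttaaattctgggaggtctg

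The first match is TATAAA (the TATA box letters), which begins 211 bases before the start. The second is TGTGGT (a RUNX motif) on the minus strand, whose plus-strand letters begin 128 bases before the start. Of 32851 promoters of the same length, 12.4% held the first and 14% held the second on either strand. The letters TGANTCA (AP-1), TGGGAA (RBPJ), GGAATG (TEAD), CACGTG (an E box), AACNNGTT (GRHL) and the HNF1 motif were not in this window on either strand. They occurred in 6.75%, 21.6%, 12.6%, 6.02%, 3.64% and 0.0609% of promoters, in that order. A second annotated start lies at 104436192, and no deposited region lies over the 250 bases before it.

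The 8 regions are named here by the distance of their midpoint from the start of the gene. The body region (104436440 to 104444729) was the widest at 8290 bp, wider than 99.6% of nuclear regions. It began 1.33 kb inside the gene and ran 3676 bases past its end. The promoter region (104432845 to 104435761, 2917 bp) covered the start. Upstream lay regions at 38.8 kb (104396131 to 104396564), 35.4 kb (104399090 to 104400380), 31.5 kb (104403237 to 104404054), 27.3 kb (104407371 to 104408238) and 17.5 kb (104417028 to 104418275). The last region lay 11.1 kb downstream of the start (104445372 to 104447101), beyond the gene. Of the 8, 7 had a mean of 1 nuclear RPM or more over the 15 libraries and entered the tests. The region at 38.8 kb, with a mean of 0.83, did not.

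Per kilobase, the most open stretch of the locus was not the promoter but the region 35.4 kb upstream. It held 23.7 RPM per kb in reprogrammed cells, 33.7 in DDC biliary cells, 6.23 in DDC hepatocytes, 59.2 in untreated biliary cells and 2.56 in untreated hepatocytes. In untreated biliary cells this density was above that of 99.5% of all nuclear regions, and in reprogrammed cells above that of 94.7%. The promoter region held 5.99 RPM per kb in reprogrammed cells, 9.95 in DDC biliary cells, 2.18 in DDC hepatocytes, 15.6 in untreated biliary cells and 3.24 in untreated hepatocytes. In untreated hepatocytes the region at 35.4 kb was not denser than the promoter region, on 6 and 10 reads in all.

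**Figure D1:**
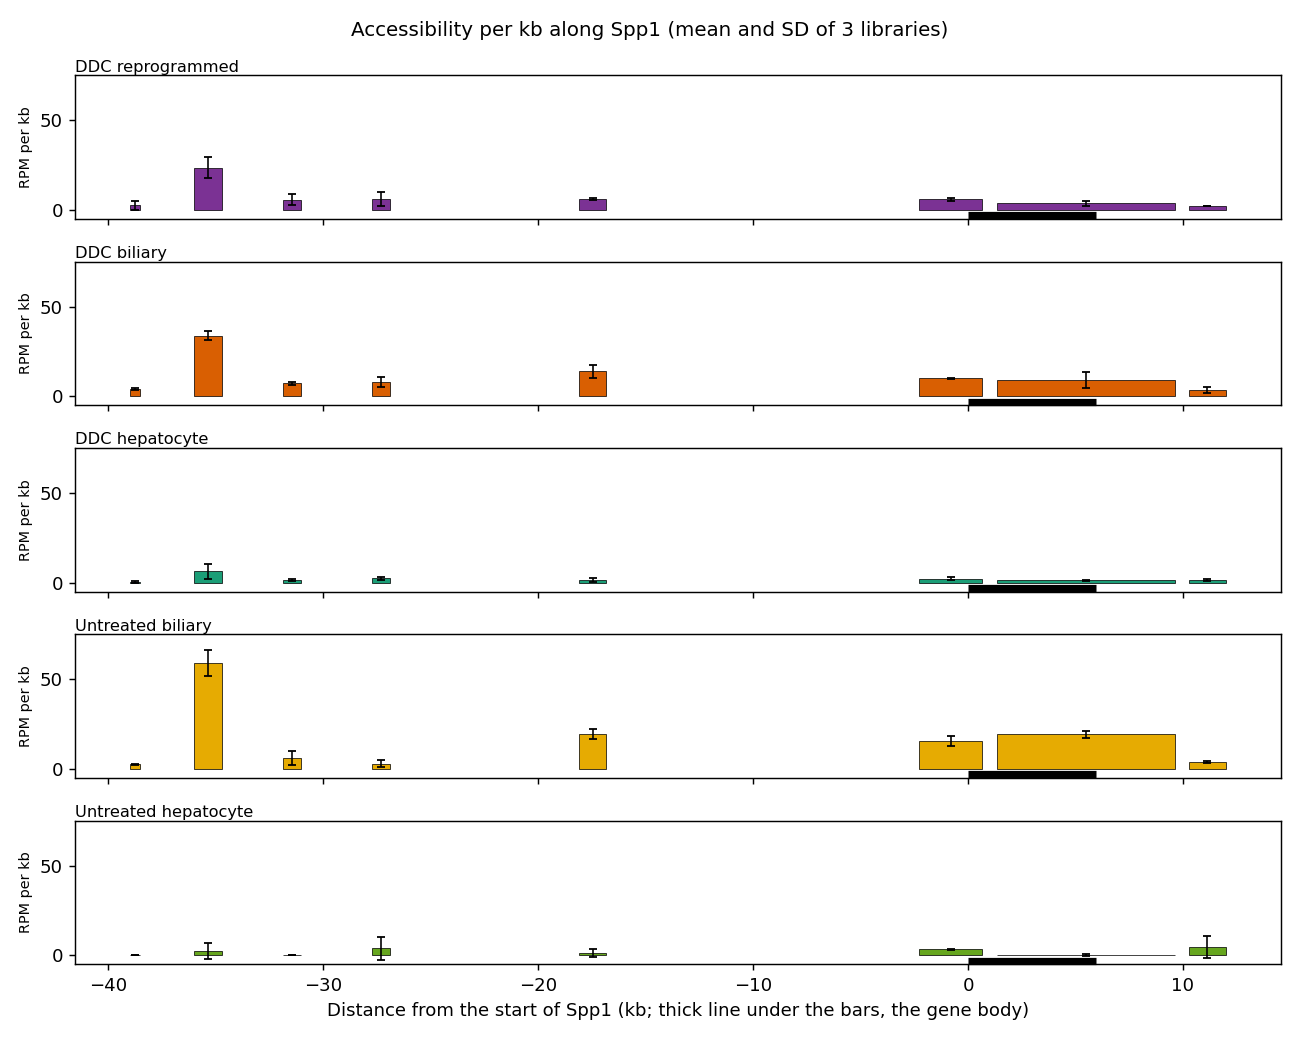
Nuclear RPM per kb (bars, mean of 3 libraries; error bars, SD) against distance in kb from the start of Spp1 for the 8 regions, 1 panel per group, with the gene body as a thick line. Among untreated biliary cells the bar at 35.4 kb upstream reaches 59.2 RPM per kb and the wide bar over the body 19.3, against 2.56 and 0.342 in untreated hepatocytes.

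Summed over its 8 regions, Spp1 was most open in untreated biliary cells, less open in DDC biliary cells, lower again in reprogrammed hepatocytes and lowest in both groups of hepatocytes. The sum was 100.9, 87.0 and 117.9 nuclear RPM in the 3 reprogrammed libraries, 135.2, 225.2 and 198.0 in DDC biliary cells and 39.7, 25.9 and 31.9 in DDC hepatocytes. It was 306.4, 321.7 and 336.0 in untreated biliary cells and 39.7, 28.1 and 17.0 in untreated hepatocytes. No library of one group overlapped another group, except that the 2 hepatocyte groups overlapped each other. The means were 102 ± 15.5, 186 ± 46.1, 32.5 ± 6.94, 321 ± 14.8 and 28.3 ± 11.3 in that order of groups (SD, n = 3 each). The untreated hepatocyte values rest on 8, 17 and 4 reads.

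**Figure D2:**
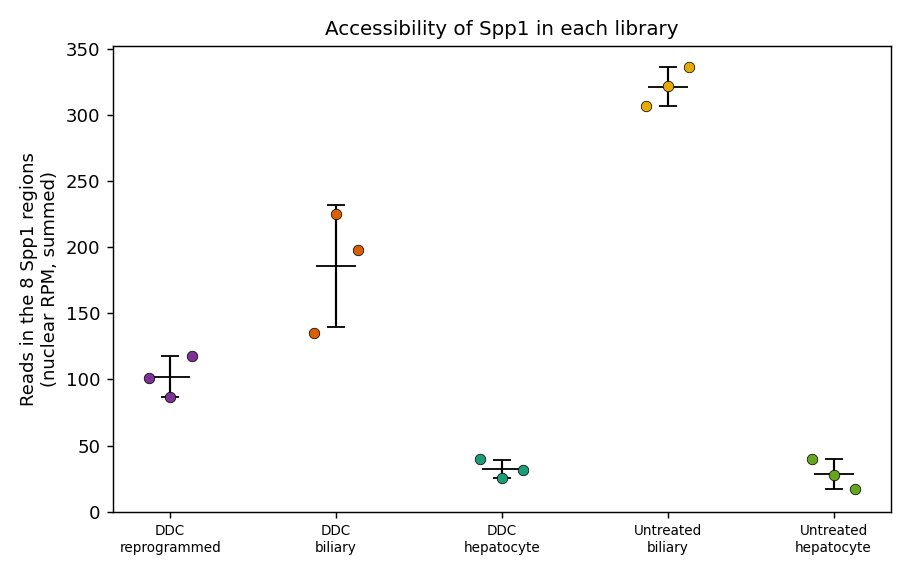
Summed nuclear RPM of the 8 Spp1 regions in each library (points), with the mean and SD of each group (bars). Reprogrammed libraries sit between 87.0 and 117.9, above all DDC hepatocyte libraries (25.9 to 39.7) and below all DDC biliary (135.2 to 225.2) and untreated biliary (306.4 to 336.0) libraries.

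The body region carried most of the range. In reprogrammed cells it had 23.7, 25.7 and 44.1 nuclear RPM, in DDC biliary cells 34.9, 105.4 and 86.7, in DDC hepatocytes 11.5, 8.62 and 11.8, in untreated biliary cells 162.8, 141.4 and 175.6, and in untreated hepatocytes 0, 0 and 8.52. All untreated biliary libraries stood above every other library, and DDC biliary library 1 fell within the range of reprogrammed cells while the other two DDC biliary libraries stood above it. The 2 reads of the third untreated hepatocyte library were the only ones in that group. Over the 3 libraries together, 3 reads would have been 2.88 nuclear RPM, and the pooled level was 1.92.

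The promoter region separated the groups with less spread. It had 15.6, 20.7 and 16.2 nuclear RPM in reprogrammed cells, 27.8, 30.1 and 29.2 in DDC biliary cells and 6.83, 3.83 and 8.39 in DDC hepatocytes. It had 40.0, 55.3 and 41.0 in untreated biliary cells and 9.92, 9.91 and 8.52 in untreated hepatocytes. Each reprogrammed library lay between all libraries of the hepatocyte groups and all those of the biliary groups. DDC biliary library 1, low at the body region, was not low here. All DDC hepatocyte libraries stood below the untreated hepatocyte ones, which rest on 2, 6 and 2 reads, library 3 by little and library 2 by the most.

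The region 35.4 kb upstream had 38.7, 23.6 and 29.4 nuclear RPM in reprogrammed cells, 42.1, 47.2 and 41.3 in DDC biliary cells and 14.1, 6.70 and 3.36 in DDC hepatocytes. It had 65.7, 82.4 and 81.3 in untreated biliary cells and 0, 9.91 and 0 in untreated hepatocytes. Reprogrammed cells again lay below both biliary groups and above DDC hepatocytes without overlap, and reprogrammed library 1 came close to the DDC biliary libraries. The region 17.5 kb upstream had 7.67, 6.71 and 8.41 in reprogrammed cells, 12.1, 20.4 and 19.4 in DDC biliary cells, 0.854, 0.958 and 3.36 in DDC hepatocytes, 24.9, 27.5 and 21.0 in untreated biliary cells and 0, 4.96 and 0 in untreated hepatocytes. There too the reprogrammed libraries lay below both biliary groups without overlap.

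The remaining regions were low and did not follow that order. The region 27.3 kb upstream was higher in all DDC biliary libraries (4.27 to 9.28 nuclear RPM) than in any untreated biliary library (0.683 to 4.16), and it ranged from 3.05 to 9.25 in reprogrammed cells. The region 31.5 kb upstream had 2.24 to 6.94 in reprogrammed cells, 5.19 to 6.60 in DDC biliary cells, 0.854 to 1.68 in DDC hepatocytes and 1.51 to 7.97 in untreated biliary cells, with no read in untreated hepatocytes. Downstream at 11.1 kb the group means were 3.83, 6.02, 2.34, 6.43 and 7.71 nuclear RPM in the order reprogrammed, DDC biliary, DDC hepatocyte, untreated biliary and untreated hepatocyte, and the last of these rests on 6 reads. The untested region at 38.8 kb did not exceed 2.19 nuclear RPM in any library.

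**Figure D3:**
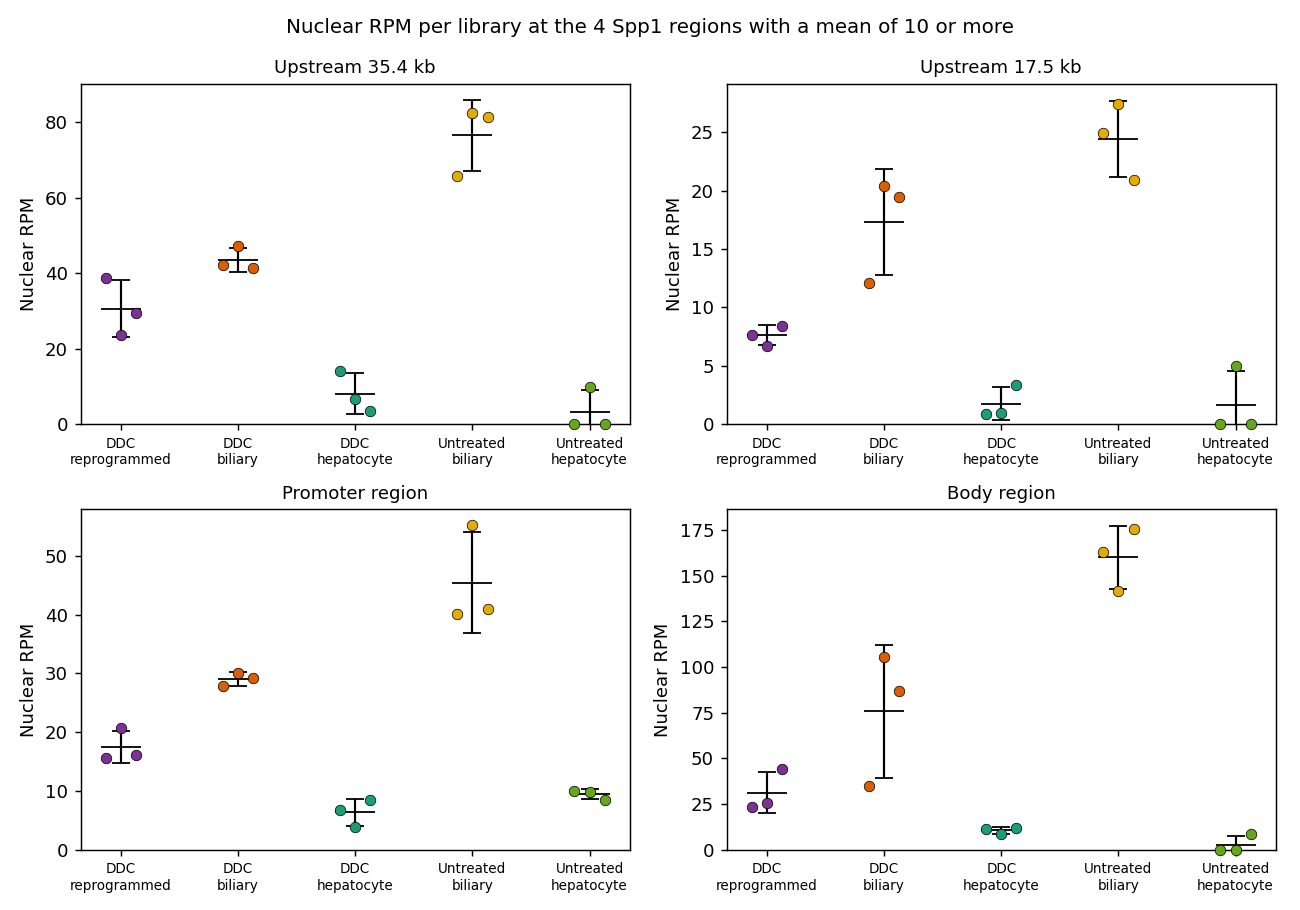
Nuclear RPM in each library (points) with group mean and SD (bars, cut at 0) at the 4 Spp1 regions whose mean over all libraries is 10 or more. At the body region DDC biliary library 1, the leftmost point of its group, is at 34.9 while the other two are at 105.4 and 86.7, whereas at the promoter region the 3 DDC biliary libraries lie between 27.8 and 30.1.

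Reprogrammed hepatocytes were set against the hepatocytes of the same DDC condition to ask how far the locus differs after reprogramming. Spp1 was 3.1-fold more open in reprogrammed cells, a log2 difference of 1.63 ± 0.26 (estimate ± SE on log2(nuclear RPM + 1), limma, adjusted p = 0.00102, n = 3 each). Of the 7 tested regions 1 rose past an adjusted p of 0.05, while 8.14% of all regions rose in this comparison. It was the promoter region (1.37 ± 0.33, adjusted p = 0.0134), and it no longer passed without reprogrammed library 2 (adjusted p = 0.0603) or DDC hepatocyte library 2 (adjusted p = 0.0565). At 6 of the 7 regions every reprogrammed library was above every DDC hepatocyte library, as at 24.7% of all regions, and the median difference over the 7 was 1.37, against 0.17 over all regions. With edgeR on the recovered reads 5 of the 7 rose (18.4% of all regions), namely the body region and those at 35.4, 31.5 and 17.5 kb besides the promoter. With only these 2 groups in the limma fit 4 rose (16.9% of all regions). The biliary markers were higher and the hepatocyte markers lower in reprogrammed cells by the ranges given above. Of other markers, the leukocyte gene Ptprc fell (−1.33 ± 0.42, limma, adjusted p = 0.044) and the endothelial gene Pecam1 rose (0.93 ± 0.28, adjusted p = 0.0388). The part of these genes in the Spp1 difference was not tested.

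In the sum every reprogrammed library lay below every library of both biliary groups, but the step to DDC biliary cells depended on the fit. Against DDC biliary cells the sum differed by −0.84 ± 0.26 (limma, adjusted p = 0.443), which did not pass in the fit of all 15 libraries, although every reprogrammed library was below every DDC biliary one. It passed with edgeR (−0.91, adjusted p = 0.00327) and with only the 2 groups in the limma fit (adjusted p = 0.0041). None of the 7 regions passed in the fit of all libraries, where 0% of all regions passed in either direction. An unadjusted p under 0.05 was found at 1 of the 7 and at 5.45% of all regions. With edgeR the body region fell (−1.26, adjusted p = 0.00217; 1.75% of all regions fell), and with only the 2 groups fitted 3 regions fell (body, promoter and 17.5 kb upstream; 4.48% of all regions fell).

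Against untreated biliary cells the sum fell by 1.66 on the log2 scale (SE 0.26, limma, adjusted p = 0.00565). The promoter region was the 1 of 7 that fell (−1.33 ± 0.33, adjusted p = 0.042), where 0.797% of all regions fell, and it did not pass when any one of the 6 libraries was left out (adjusted p 0.0693 to 0.179). The body region had the larger difference (−2.37 ± 0.66) with an adjusted p of 0.0675. With edgeR 4 regions fell (3.98% of all regions), and with only the 2 groups fitted 4 fell (5.44%): the body, the promoter and those at 35.4 and 17.5 kb upstream.

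**Figure D4:**
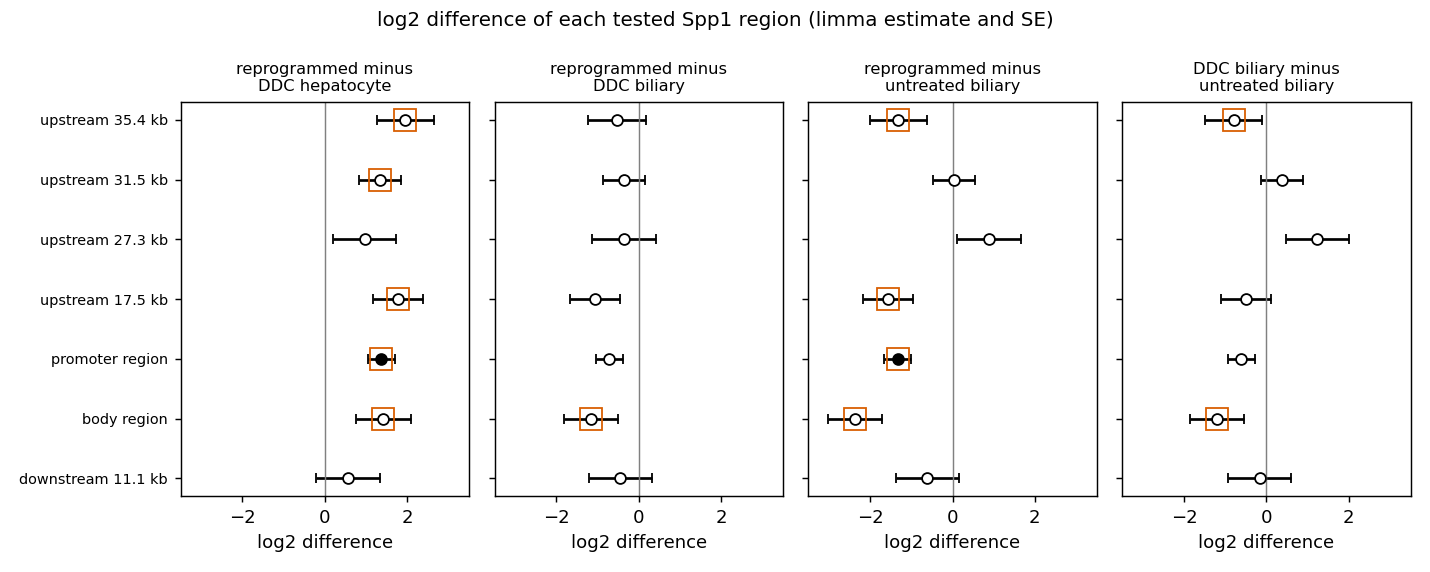
log2 difference (points, limma estimate; bars, SE) of the 7 tested Spp1 regions in 4 comparisons; filled points passed an adjusted p of 0.05 with limma on all 15 libraries, and squares mark regions that passed with edgeR. All 7 points lie right of 0 for reprogrammed cells minus DDC hepatocytes and left of 0 for reprogrammed minus DDC biliary cells, while the regions at 31.5 and 27.3 kb lie right of 0 against untreated biliary cells.

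Biliary cells of DDC livers were set against those of untreated livers to ask what DDC does within the lineage that normally makes osteopontin. The sum was lower in all 3 DDC biliary libraries, with a difference of −0.82 ± 0.26 (limma, adjusted p = 0.107). It did not pass in the fit of all libraries, but it did with edgeR (−0.75, adjusted p = 0.00368) and with only the 2 groups fitted (adjusted p = 0.00135). None of the 7 regions passed, where 0.545% of all regions fell. None had an unadjusted p under 0.05, against 15.3% of all regions. With edgeR 2 regions fell, the body (−1.13, adjusted p = 0.00116) and the one at 35.4 kb (−0.86, adjusted p = 0.0269), where 3.49% of all regions fell. With only the 2 groups fitted the promoter fell as well (−0.61, adjusted p = 0.0141; 6.15% of all regions fell). The body difference was −1.21 with all libraries and −0.73 without DDC biliary library 1. The biliary markers, unlike Spp1, were higher in DDC biliary cells (966 to 1037 nuclear RPM, against 773 to 860 in untreated biliary cells). The sum of 4 endothelial genes was higher too, at 97.1 to 119 in DDC biliary cells, against 65.2 to 83.9 in untreated biliary cells. None of the 4 passed by itself, and Kdr leaned the other way (−0.69 ± 0.50, limma, adjusted p = 0.58). Of the stellate list Reln was lower (−0.86 ± 0.20, limma, adjusted p = 0.0264) and no other gene passed. The part of these genes in the Spp1 difference was not tested.

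In hepatocytes DDC made no difference to the sum that could be detected at this depth (0.25 ± 0.26, limma, adjusted p = 0.532). In pooled reads the ratio of DDC to untreated hepatocytes was 1.18, with a 95% exact interval of 0.796 to 1.81 that covers counting error only. Of the 7 regions 1 rose (9.94% of all regions rose), the body region, with 59 reads in DDC hepatocytes and 2 in untreated hepatocytes. Its fitted difference was 2.44 ± 0.66 (limma, adjusted p = 0.0239), and the ratio of pooled levels was 5.47 (95% exact interval 1.45 to 46.2). It passed with edgeR (adjusted p = 0.021) but not with only the 2 groups fitted (adjusted p = 0.371). It also missed the threshold without any one of the 3 DDC hepatocyte libraries or untreated hepatocyte library 1 or 2 (adjusted p 0.0508 to 0.079). Without untreated hepatocyte library 3, which held both reads, it was 3.53 (adjusted p = 5.29e-05). Thinned to the depth of the shallowest library it was 1.72 (adjusted p = 0.496). Of the 3 measured genes of the macrophage list, Cd68 rose (0.95 ± 0.17, limma, adjusted p = 0.0029) and Csf1r did not pass (0.97 ± 0.32, adjusted p = 0.0575). Ptprc, the leukocyte gene, fell (−1.37 ± 0.42, limma, adjusted p = 0.0417). The part of these genes in the Spp1 values was not tested. The promoter region of Spp1 went the other way (−0.56 ± 0.33, adjusted p = 0.293), and its sign turned with TMM scale factors (0.0051) and on the deposited scale (0.69).

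The difference between the lineages was the widest. In untreated livers the sum was 3.54 higher on the log2 scale in biliary cells than in hepatocytes (SE 0.26, limma, adjusted p = 1.27e-06), and 5 of 7 regions rose, where 22.1% of all regions rose. In pooled reads the body region was 85.0-fold higher in untreated biliary cells (1547 reads) than in untreated hepatocytes (2 reads), with an interval of 23.5 to 703. The region at 35.4 kb was 13.4-fold higher (6.13 to 36.7) and the promoter region 4.63-fold (2.49 to 9.72). The region at 31.5 kb, with no read in untreated hepatocytes, was at least 1.91-fold higher in untreated biliary cells when set against 3 reads over the group. In DDC livers the sum was 2.47 ± 0.26 higher in biliary cells than in hepatocytes (limma, adjusted p = 1.81e-05). There 5 of 7 regions rose (16.4% of all regions rose): the body (2.59 ± 0.66), the promoter (2.08 ± 0.33) and those at 35.4 kb (2.48 ± 0.70), 31.5 kb (1.68 ± 0.51) and 17.5 kb (2.83 ± 0.61). Leaving out any one of the 6 libraries left 4: the region at 35.4 kb did not pass without DDC hepatocyte library 3 (adjusted p = 0.0727), and that at 31.5 kb did not pass without any one of the other 5 (adjusted p 0.0601 to 0.0692).

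Reprogrammed cells were also above untreated hepatocytes, by 1.88 ± 0.26 in the sum (limma, adjusted p = 8.41e-05). Of the 7 regions 4 rose (27.2% of all regions rose), and at the body region 679 reads against 2 gave a ratio of pooled levels of 14.9 (4.11 to 123). The promoter region did not pass (0.81 ± 0.33, adjusted p = 0.0619), but it did with edgeR (1.57, adjusted p = 0.0136). The question whether DDC acted differently in the 2 lineages was put to the difference of the 2 DDC differences. For the sum it was −1.07 ± 0.37 (limma, adjusted p = 0.126). None of the 7 regions passed, where 2.35% of all regions passed in either direction. An unadjusted p under 0.05 was found at 2 of the 7 and at 18.3% of all regions. The nearest was the body region (−3.65 ± 0.93, adjusted p = 0.0506), which passed with edgeR (−4.10, adjusted p = 0.00148).

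In the order of the 5 levels, reprogrammed cells thus passed the test against DDC hepatocytes, their lower neighbour, while DDC and untreated hepatocytes did not differ beyond their spread. The steps between reprogrammed and DDC biliary cells and between DDC biliary and untreated biliary cells depended on the fit, as given above. The pairs further apart passed for the sum: DDC biliary cells were 2.72 above untreated hepatocytes (limma, adjusted p = 2.91e-06), and DDC hepatocytes were below untreated biliary cells (−3.29, adjusted p = 5.87e-06).

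Reads were also described by their share within the locus, where the DDC biliary libraries overlapped those of reprogrammed cells, DDC hepatocytes and untreated biliary cells. The body region took 30.2 ± 7.0% of the Spp1 reads in reprogrammed cells, 38.8 ± 11.3% in DDC biliary cells, 33.1 ± 3.9% in DDC hepatocytes and 49.8 ± 5.1% in untreated biliary cells (SD, n = 3 each). In untreated hepatocytes it took 0 of 8, 0 of 17 and 2 of 4 reads. The 5 regions wholly upstream took 48.4 ± 7.8% in reprogrammed cells, 41.8 ± 8.0% in DDC biliary cells, 40.4 ± 7.6% in DDC hepatocytes and 34.1 ± 2.7% in untreated biliary cells. The ratio of body to promoter reads was 1.25 to 2.73 in reprogrammed libraries, 1.26 to 3.5 in DDC biliary libraries, 1.4 to 2.25 in DDC hepatocyte libraries and 2.56 to 4.28 in untreated biliary libraries. These shares were not tested.

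The genes next to Spp1 did not pass where Spp1 did. Of the 3 protein-coding neighbours on each side, Ibsp (bone sialoprotein) had no region, and Mepe, Dmp1, Pkd2, Thoc2l and Zfp33b passed in none of the 8 comparisons (limma, SE 0.30 to 0.82). The lowest adjusted p was 0.11 (limma), for Dmp1 in untreated biliary cells against untreated hepatocytes (1.70 ± 0.82). Between reprogrammed cells and DDC hepatocytes Pkd2 (0.37 ± 0.35), Dmp1 (0.11 ± 0.82) and Zfp33b (0.02 ± 0.57) leaned as Spp1 did. Mepe (−0.28 ± 0.45) and Thoc2l (−0.07 ± 0.30) leaned the other way. Pkd2, which encodes polycystin-2 and begins 12.9 kb past the end of Spp1, averaged 36.7 ± 4.4 nuclear RPM in reprogrammed cells, 41.3 ± 2.1 in DDC biliary cells, 28.3 ± 3.1 in DDC hepatocytes, 39.4 ± 7.3 in untreated biliary cells and 32.1 ± 23.8 in untreated hepatocytes (SD, n = 3 each). The rule's edges lay between regions of low value. The outermost member upstream was the one at 38.8 kb, and the next region out (104380621 to 104381828, nearest to Mepe) averaged 3.79 nuclear RPM in reprogrammed cells, 4.62 in DDC biliary cells, 0.569 in DDC hepatocytes and 1.24 in untreated biliary cells, with no read in untreated hepatocytes. Downstream, the next region out (104452919 to 104454234, nearest to Pkd2) averaged 4.76, 8.19, 0.319 and 3.07 in the same 4 groups, again with no read in untreated hepatocytes.

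Among 16268 other genes, the closest to Spp1 over the 15 libraries were Ubap2l, Ska3, Igf1r, Esrp1 and Gm6812. Likeness was the root mean square difference of log2(nuclear RPM + 1) after centring each gene on its mean, which was 0.444 for Ubap2l, 0.467 for Ska3, 0.486 for Igf1r, 0.490 for Esrp1 and 0.493 for Gm6812, with a median of 1.41 over all genes. Ubap2l, Ska3 and Gm6812 each rest on 1 region of few reads. Igf1r, the receptor of insulin-like growth factor 1, rests on 33 regions, and Esrp1, a splicing regulator of epithelial cells, on 4. Igf1r averaged 214 ± 15.8 nuclear RPM in reprogrammed cells, 292 ± 4.3 in DDC biliary cells, 62.2 ± 13 in DDC hepatocytes, 323 ± 29.3 in untreated biliary cells and 70.1 ± 30.1 in untreated hepatocytes. Esrp1 averaged 48.9 ± 12.9, 144 ± 11.6, 20.3 ± 10.1, 138 ± 13.7 and 21.7 ± 11.5 in the same order. Neither had a gap between DDC and untreated biliary cells like that of Spp1 (−0.82 ± 0.26), with differences of −0.14 ± 0.22 for Igf1r and 0.06 ± 0.34 for Esrp1. Gm6812 leaned the same way as Spp1 (−0.54 ± 0.43), while Ubap2l (−0.20 ± 0.47) and Ska3 (0.15 ± 0.36) were nearer to no difference. The difference of these genes from Spp1 was not tested.

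Some genes of osteopontin receptors were more open in reprogrammed cells than in DDC hepatocytes. All 10 of the list (integrin subunits and CD44) had regions. Between reprogrammed cells and DDC hepatocytes 4 rose and none fell, where 14.2% of all genes passed in either direction, and the list's median was 0.61, against 0.12 over all genes (limma). The 3 with the widest differences were Itgb6, Cd44 and Itga9. Itgb6, an integrin subunit of epithelia, had 164 ± 48.4 nuclear RPM in reprogrammed cells and 27.6 ± 5.0 in DDC hepatocytes (2.49 ± 0.32, adjusted p = 0.000284). Cd44, the hyaluronan receptor, had 217 ± 86.3 in reprogrammed cells and 49.9 ± 15.9 in DDC hepatocytes (2.07 ± 0.38, adjusted p = 0.00246). Itga9, the integrin subunit that binds the site next to the RGD motif, had 59.1 ± 20.5 and 30.3 ± 1.3 in the same groups and did not pass (0.88 ± 0.34, adjusted p = 0.0979). None of the 10 passed between reprogrammed and DDC biliary cells, where 0.0246% of all genes did.

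Within the biliary lineage Cd44 was among the receptors that differed. Between DDC and untreated biliary cells 2 of the 10 receptors rose and none fell (3.31% of all genes passed): Cd44, with 235 ± 94.7 nuclear RPM in DDC biliary cells, against 64.8 ± 27.0 in untreated biliary cells (1.87 ± 0.38, limma, adjusted p = 0.015), and Itgav, the alpha subunit of most RGD-binding integrins (0.67 ± 0.16, adjusted p = 0.0288). Between reprogrammed and untreated biliary cells Cd44 rose (1.75 ± 0.38, adjusted p = 0.0252) and Itga9 fell (−1.38 ± 0.34, adjusted p = 0.0433), and 2.67% of all genes passed. Between DDC biliary cells and DDC hepatocytes 5 rose and none fell (24.5% of all genes). Between DDC and untreated hepatocytes none rose and 2 fell (13.6%), Itgav and Itgb6. Between untreated biliary cells and untreated hepatocytes 2 rose and 2 fell (39%), and between reprogrammed cells and untreated hepatocytes 3 rose and 1 fell (41.6%).

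The other members of the osteopontin family of secreted phosphoproteins and the enzymes that act on osteopontin showed few calls. Of the 4 family genes, which form a cluster with Spp1 on chromosome 5, Mepe and Dmp1 had regions and passed in no comparison, while Ibsp and Dspp had none. Of 7 enzymes 6 had a region. Between reprogrammed cells and DDC hepatocytes, where 14.2% of all genes passed, none rose and 1 fell: F2, the gene of prothrombin, with 18.3 ± 6.4 nuclear RPM in reprogrammed cells and 54.0 ± 8.6 in DDC hepatocytes (−1.56 ± 0.39, limma, adjusted p = 0.0142). Mmp7, a metalloproteinase that cleaves osteopontin, had 24.4 ± 11.5 in reprogrammed cells and 11.4 ± 2.6 in DDC hepatocytes (0.93 ± 0.52, adjusted p = 0.272), and Acp5, a phosphatase that removes its phosphates, 20.8 ± 3.1 and 39.8 ± 4.1 (−0.91 ± 0.40, adjusted p = 0.145). Between DDC biliary cells and DDC hepatocytes Mmp7 rose (2.65 ± 0.52, adjusted p = 0.00163), and F2 and Acp5 fell (24.5% of all genes passed). None of the 6 passed between DDC and untreated biliary cells, between reprogrammed and DDC biliary cells or between reprogrammed and untreated biliary cells. Between DDC and untreated hepatocytes 2 rose, Fam20c and Tgm2, and none fell (13.6% of all genes passed). Between untreated biliary cells and untreated hepatocytes 1 rose and 2 fell, where 39% of all genes passed. Between reprogrammed cells and untreated hepatocytes 3 rose and 1 fell, where 41.6% passed.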

How the data were processed

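ATAC-seq reads were counted by the submitters in 93217 regions. The tools, per the submitters' processing notes, were bedtools, MACS2, SAMtools and Bowtie2, and the build mm10. Their versions, the handling of duplicates and the merging of peaks are not stated in the labels. The labels list the molecule as RNA, but their protocol describes extracted DNA. The deposited values are named TPM but are RPM: all those of 100 reads or fewer came out as whole reads (tolerance 0.02), with no division by length. For reprogrammed library 1 that step lies near a power of 10, so its pattern is weaker evidence. Reads were recovered from these steps and rescaled without the 2 mitochondrial regions, which held 9.24 ± 5.14% of reads in reprogrammed cells and 76.6 ± 11.7% in untreated hepatocytes. No library was a copy of another of its group (chi-square over degrees of freedom 2.18 to 7.47).

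Of all regions, 86.2% were tied by midpoint to a protein-coding gene of the RefSeq table (GRCm38.p6), in its body or the nearest within 50 kb, and summed per gene. The test was limma-trend on log2(nuclear RPM + 1), which understates changes of low regions, with all 15 libraries in 1 fit, features of mean 1 or more (79075 regions, 16269 genes) and Benjamini-Hochberg adjustment over all of them within a comparison. Simulated data (77389 regions) held 4-fold changes between reprogrammed cells and DDC hepatocytes. Of changed regions of 10 RPM or more limma recovered 64% and edgeR 100%. Of those under 10 RPM limma recovered 4% and edgeR 58%. How much either tool recovers in the real libraries was not tested. Alternatives were other pseudocounts, no filter, the deposited scale, TMM, edgeR, only the compared groups, a replicate block, thinning and leaving out single libraries. The software was Python 3.11.15, R 4.3.3, edgeR 4.0.16, limma 3.58.1, version 1.17.8 of data.table, numpy 2.4.6, pandas 2.3.3, scipy 1.17.1 and matplotlib 3.10.9. Intervals are 95% and exact, and cover counting error only. The members and gene lists were chosen with earlier results of these data known. Named genes were the 5 most like Spp1, 3 neighbours on each side, and the 3 of each list with the widest difference between reprogrammed cells and DDC hepatocytes, besides members that passed elsewhere. Stellate and endothelial markers were summed as a check only: the stellate sum lay between 68.1 and 155 nuclear RPM and the endothelial sum between 65.2 and 165 over all libraries. Single members passed in some comparisons. Between DDC biliary cells and DDC hepatocytes Pdgfrb (3.31 ± 0.88, limma, adjusted p = 0.0118) and Pecam1 (1.13 ± 0.28, adjusted p = 0.00786) were higher. There Stab2 (−1.85 ± 0.31, limma, adjusted p = 0.0005) and Reln (−0.57 ± 0.20, adjusted p = 0.0483) were lower. Their part in the Spp1 differences was not tested.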

Additional observations from a re-analysis of the deposited data

Results flagged for a closer look

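The body region of Spp1 was picked out because its libraries lay on opposite sides of their untreated counterparts in the 2 lineages. Every DDC biliary library (34.9 to 105.4 nuclear RPM) was below every untreated biliary one (141.4 to 175.6), and every DDC hepatocyte library (8.62 to 11.8) was above every untreated hepatocyte one (0 to 8.52). The difference of the DDC differences was −3.65 ± 0.93 on the log2 scale (limma, adjusted p = 0.0506). It passed with edgeR (−4.10, adjusted p = 0.00148), which applied TMM scale factors too, and with TMM scale factors in limma (adjusted p = 0.0111). It also passed in limma without untreated hepatocyte library 1 (−3.11, adjusted p = 0.0398), 2 (−3.11, adjusted p = 0.0409) or 3 (−4.74, adjusted p = 0.000324). It did not pass when all libraries were thinned to the depth of the shallowest (−2.58, adjusted p = 0.531; 0.00253% of all regions passed there), with only the compared groups (adjusted p = 0.103), nor without any one library of the other 3 groups (adjusted p 0.0783 to 0.155, the last without DDC biliary library 1, −3.18). The untreated hepatocyte side rests on 2 reads, both in library 3, where 1 read was worth 4.26 nuclear RPM. Because the region was picked on these same values, the tests are not separate support. The difference within biliary cells did not pass by itself (−1.21, adjusted p = 0.433), and that within hepatocytes did not pass with only those 2 groups fitted (adjusted p = 0.371) or after thinning (1.72, adjusted p = 0.496).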

How the results depend on the processing

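The summed Spp1 differences kept their direction under the alternatives tried, except between DDC and untreated hepatocytes without untreated hepatocyte library 3 (−0.059, the lowest of a range that ends at 0.53). Leaving out 1 library at a time gave 1.48 to 1.78 for reprogrammed cells against DDC hepatocytes, −1.05 to −0.69 against DDC biliary and −1.77 to −1.55 against untreated biliary cells, and −1.34 (passing, without untreated hepatocyte library 1) to −0.76 for the difference of DDC differences. On the deposited scale, where the median of all genes between DDC and untreated hepatocytes was 1.54 instead of 0.21, that sum passed at 1.68 and the difference of DDC differences at −2.34. With regions in gene bodies only, the sums were 1.43 (adjusted p = 0.188) and −2.37 (adjusted p = 0.0896) for reprogrammed cells against DDC hepatocytes and untreated biliary cells, no longer passing, and 2.44 for DDC against untreated hepatocytes, which passed. The edgeR and 2-group sums that passed were −0.91 and −0.84 for reprogrammed against DDC biliary cells and −0.75 and −0.82 for DDC against untreated biliary cells.

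Counts of regions passing, of 7, moved most. For reprogrammed cells against DDC hepatocytes (1) they were 4 with a pseudocount of 5 (8.9% of all regions rose there), 6 on the deposited scale (26.4%) and 3 with TMM (12.2%). They were 5 with edgeR, 4 with the compared groups, 0 when thinned to 201705 reads and 0 to 1 without single libraries. Against DDC biliary cells (0) they were 1 with edgeR and 3 with the compared groups. Against untreated biliary cells (1) they were 0 with a pseudocount of 0.5, 3 with 5 (4.71% of all regions passed in either direction), 3 on the deposited scale (11.3%) and 2 with TMM (4.09%). They were 4 with edgeR, 4 with the compared groups, 0 when thinned and 0 without any single library. Thinning left 1 of 5 between DDC biliary cells and DDC hepatocytes (4 without any single library), 3 of 5 between untreated biliary cells and hepatocytes, and 0 of 4 between reprogrammed cells and untreated hepatocytes, where the deposited scale gave 7 and put 67% of all regions higher. Between DDC and untreated biliary cells (0) edgeR gave 2 and the compared groups 3. Between DDC and untreated hepatocytes (1) the deposited scale and TMM gave 2 (47.6% and 20.4% of all regions rose), a pseudocount of 5, the compared groups and thinning 0, and single libraries left out 0 to 2. For the difference of DDC differences (0), a pseudocount of 5, TMM, edgeR and the replicate block gave 1 (2.74%, 6.76%, 5.62% and 1.67% of all regions passed in either direction). The deposited scale gave 2 (27.5% of all regions), and single libraries left out 0 to 2. The cause of these shifts was not tested.

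Of 1197 values of single regions under alternatives, 39 had the other sign, 24 of them without single libraries, and in none did the region pass before or after. Those of the 4 regions with a mean of 10 nuclear RPM or more were at 17.5 kb upstream between DDC and untreated hepatocytes with edgeR (−0.38), at the promoter there on the deposited scale (0.69) and with TMM (0.0051), and for the promoter's difference of DDC differences (−0.057) when thinned (0.62) or without single libraries (−0.33 to 0.15). Same-numbered libraries showed little correlation across groups: 30 pairs correlated at −0.119 to 0.209, 4 of them over 0.1. Their median was 0.0152, against −0.0103 for pairs of unlike number. Whether same-numbered libraries share an animal cannot be told from these values or from the labels. The replicate block left the estimates as they were and moved 3 calls: in reprogrammed against untreated biliary cells the body region passed (−2.37, adjusted p = 0.0487) and the promoter region did not (adjusted p = 0.0666), and the body region's difference of DDC differences (−3.65) passed (adjusted p = 0.0423).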
